A study of Mus musculus with 6 samples.

Results

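Type I interferon-stimulated genes were followed across RNA-seq libraries of bone marrow-derived macrophages (BMDMs) that lacked PKM2 or not. The list held 56 gene symbols, drawn up by function from antiviral effectors, RNA and DNA sensors, the parts of the transcription factor ISGF3 and the type I interferon receptor. Of these, 55 had a row among the 23935 symbols of the tables and all 55 passed the filter on low counts, which left 16516 genes for testing. Ifnb1, the interferon-β gene, was not analysed here. PKM2ΔMAC mice carried a floxed Pkm allele together with LysM-Cre, a Cre inserted into the lysozyme gene Lyz2 that acts in myeloid cells. Control littermates, PKM2FL/FL, carried the floxed allele without Cre. Marrow of 3 mice per genotype was grown with M-CSF for 7 days, and the cells of both genotypes were labelled as primed for 16 h with LPS (10 ng/mL) and IFN-γ (25 ng/mL), so that all groups shared the priming. The age and sex of the mice whose marrow was sequenced are not given in the sources used here. The comparison addressed whether loss of PKM2 alters the response of pro-inflammatory macrophages.

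Type I interferons bind the receptor IFNAR1/IFNAR2, whose kinases JAK1 and TYK2 activate the transcription factor ISGF3, which holds STAT2 and IRF9 and binds interferon-stimulated response elements (ISREs) in the promoters of many antiviral genes. Macrophages stimulated through TLR4 make interferon-β, which acts back on the same cells, and a low tonic interferon signal keeps many of these genes transcribed in resting cells. IFN-γ acts mainly through GAS elements and shares part of this gene set.

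The libraries held 49957449 to 54524651 counts, and a count of 3 equalled 0.0550 to 0.0601 CPM, counts scaled to the size of the library. Pkm, the targeted gene, whose row sums all isoforms, was at 1714, 1698 and 1705 CPM in the PKM2FL/FL libraries and at 987, 1212 and 1005 CPM in the PKM2ΔMAC libraries, and it fell by 0.68 on the log2 scale (SE 0.08, adjusted p = 0.00913). Lyz2, the locus that holds Cre, was at 17006 to 18721 CPM against 24.3 to 31.8 CPM. The other 11 macrophage markers summed to 10143 to 10975 CPM in the 6 libraries, with differences among them by genotype. Itgam (CD11b) was higher in PKM2ΔMAC by 0.43 on the log2 scale (SE 0.04, adjusted p = 0.00272), the other marker of this list past the threshold being Lyz2. Genes that LPS with IFN-γ strongly induces in macrophages were scarce in every library, a list chosen after its values were seen. Nos2, the inducible nitric oxide synthase, had 2 to 26 counts per library, Il6 7 to 18, Il12b 2 to 6, the chemokine gene Cxcl9 22 to 50, Acod1 81 to 228 and Cxcl10 121 to 305. No unprimed library was analysed here, so the effect of priming on the interferon-stimulated genes was not tested, and "primed" below is the label. Replicate pairs differed by a chi-square per degree of freedom of 8.03 to 14.8 within PKM2FL/FL and of 10.8 to 59.7 within PKM2ΔMAC, where both pairs with replicate 2 were the farthest apart.

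Promoter sequences of the listed genes were searched for letters like those of ISREs and GAS elements. RefSeq (GRCm38.p6) gave promoter windows, 250 bases before to 50 bases after a start site, for 44 of the 56 listed genes, 55 windows in all. The letters GAAANNGAAA, an ISRE-like core sought on both strands (TTTCNNTTTC on the other), occurred in 25 of the 55 windows (45.5%) and in 3.44% of all 32851 windows. The GAS-like letters TTCNNNGAA, which read the same on both strands, occurred in 8 of the 55 windows (14.5%) against 8.30% of all. The promoters of Ifit3 and Ifit3b are shown because these near-copies were among the genes that varied most between libraries, that of Isg15 because it holds 3 overlapping matches, and that of Ifnar1 as a member with no ISRE-like match that hardly varied. Capitals mark ISRE-like matches on either strand, and each window is written 5′ to 3′ along its gene.
Ifit3 (chr19:34583279-34583578, plus strand): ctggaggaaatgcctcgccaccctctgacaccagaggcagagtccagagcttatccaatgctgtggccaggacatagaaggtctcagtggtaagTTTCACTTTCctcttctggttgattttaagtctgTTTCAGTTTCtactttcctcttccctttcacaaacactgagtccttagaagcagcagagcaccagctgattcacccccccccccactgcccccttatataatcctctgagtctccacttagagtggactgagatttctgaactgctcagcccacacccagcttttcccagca
Ifit3b (chr19:34607707-34608006, plus strand): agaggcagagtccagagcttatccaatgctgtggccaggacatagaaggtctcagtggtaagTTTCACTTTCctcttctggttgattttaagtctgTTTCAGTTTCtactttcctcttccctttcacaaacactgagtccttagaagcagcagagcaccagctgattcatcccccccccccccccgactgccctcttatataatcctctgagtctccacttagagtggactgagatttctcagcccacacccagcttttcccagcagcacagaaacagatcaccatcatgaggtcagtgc
Isg15 (chr4:156200769-156201068, minus strand): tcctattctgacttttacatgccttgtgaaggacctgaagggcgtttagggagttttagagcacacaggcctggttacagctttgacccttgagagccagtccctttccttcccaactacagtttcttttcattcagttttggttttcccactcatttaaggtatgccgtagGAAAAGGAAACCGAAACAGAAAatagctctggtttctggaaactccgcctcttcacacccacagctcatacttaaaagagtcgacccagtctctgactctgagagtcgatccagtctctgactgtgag
Ifnar1 (chr16:91484965-91485264, plus strand): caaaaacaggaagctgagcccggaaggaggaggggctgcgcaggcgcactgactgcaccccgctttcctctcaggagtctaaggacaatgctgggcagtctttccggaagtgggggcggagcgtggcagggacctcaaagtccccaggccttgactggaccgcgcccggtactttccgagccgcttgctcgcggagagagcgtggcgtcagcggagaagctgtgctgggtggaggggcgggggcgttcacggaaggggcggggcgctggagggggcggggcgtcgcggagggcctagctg
The matches began 156 and 122 bases before the start site in Ifit3, 188 and 154 bases before it in Ifit3b, and 78, 72 and 66 bases before it in Isg15. Aligned without gaps, the Ifit3 and Ifit3b windows were identical at 201 of 268 bases (75.0%). Stretches of 60 bases around the match nearest to the start site show its setting in further members.
Ifit1 (chr19:34640779-34640838, plus strand): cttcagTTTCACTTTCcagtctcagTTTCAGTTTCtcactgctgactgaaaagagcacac
Stat2 (chr10:128270251-128270310, plus strand): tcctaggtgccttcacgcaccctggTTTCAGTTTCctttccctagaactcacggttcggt
Oas1a (chr5:120907505-120907564, minus strand): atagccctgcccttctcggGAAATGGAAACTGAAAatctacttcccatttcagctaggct
Oas1g (chr5:120887591-120887650, minus strand): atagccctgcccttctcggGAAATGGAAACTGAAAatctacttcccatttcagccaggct
Ddx58 (chr4:40239789-40239848, minus strand): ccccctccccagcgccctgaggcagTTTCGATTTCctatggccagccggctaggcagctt
Rsad2 (chr12:26456538-26456597, minus strand): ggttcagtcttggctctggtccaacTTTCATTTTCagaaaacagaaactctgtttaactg
The Ifit1 stretch held 2 matches, of which the nearer began 85 bases upstream. The Stat2 match began 222 bases upstream, and those of Oas1a and Oas1g, whose windows were identical at 69.5% of 298 bases, overlapped within the last bases before the start site. In Ddx58 the match lay 2 bases into the transcript. Irf7, Oasl1, Ifnar1 and Ifnar2 had a window with none of these ISRE-like letters. A match is a description of the letters in this window and not a measured binding site. For 41 of the 55 windows the 30 bases from the start site were in a transcript of the gene in GENCODE M21, a second annotation. Distances and missing matches therefore hold for the RefSeq start site of each window.

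None of the 55 members passed the test between genotypes. By the quasi-likelihood test of edgeR, adjusted after Benjamini and Hochberg, 0 of 55 members had an adjusted p under 0.05, beside 68 of the 16516 genes tested (0.412%). At an unadjusted p under 0.05 the count was also 0 of 55, beside 9.83% of all genes. DESeq2 called 0 of 55, beside 280 of 20217 genes (1.38%). The smallest adjusted p of a member by edgeR was 0.537, for Herc6. Fold changes were small and of both signs. The log2 fold change of PKM2ΔMAC over PKM2FL/FL was above 0 for 43 members and below 0 for 12, with a median of 0.06, a lowest value of -0.19 for Phf11b and a highest of 0.45 for Irf7. The Phf11b value was -0.079 without PKM2FL/FL replicate 2, -0.31 without PKM2FL/FL replicate 3 or PKM2ΔMAC replicate 2, and 0.0056 without PKM2ΔMAC replicate 3. The libraries of the genotypes did not overlap for 1 of 55 members, Ifnar2, beside 17.2% of all genes. Standard errors ran from 0.04 for Ifitm2 to 0.49 for Oasl1, so that for the members that varied most a difference of the size of the Irf7 value was within the error.

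The members varied more than the typical gene in both genotypes, and most among the 3 PKM2ΔMAC mice. The median SD of the members, as log2(CPM + 0.1), was 0.12 in PKM2FL/FL and 0.38 in PKM2ΔMAC, against 0.09 and 0.13 over all genes tested. The SD was larger in PKM2ΔMAC for 54 of the 55 members, all but Ifnar1, beside 63.5% of all genes. PKM2ΔMAC replicate 3 was the lowest of the 6 libraries for 48 members (background 18.8%) and PKM2ΔMAC replicate 2 the highest for 46 (background 24.9%). Both held for 43 members (78.2%), beside 6.48% of all genes. PKM2ΔMAC replicate 1 was above every PKM2FL/FL library for 39 members (background 28.5%), and among the controls replicate 3 was the lowest for 47 members (background 31.8%). These libraries were singled out after their values were seen and the members of a list are not independent of one another, so the counts are a description.

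**Figure D1:**
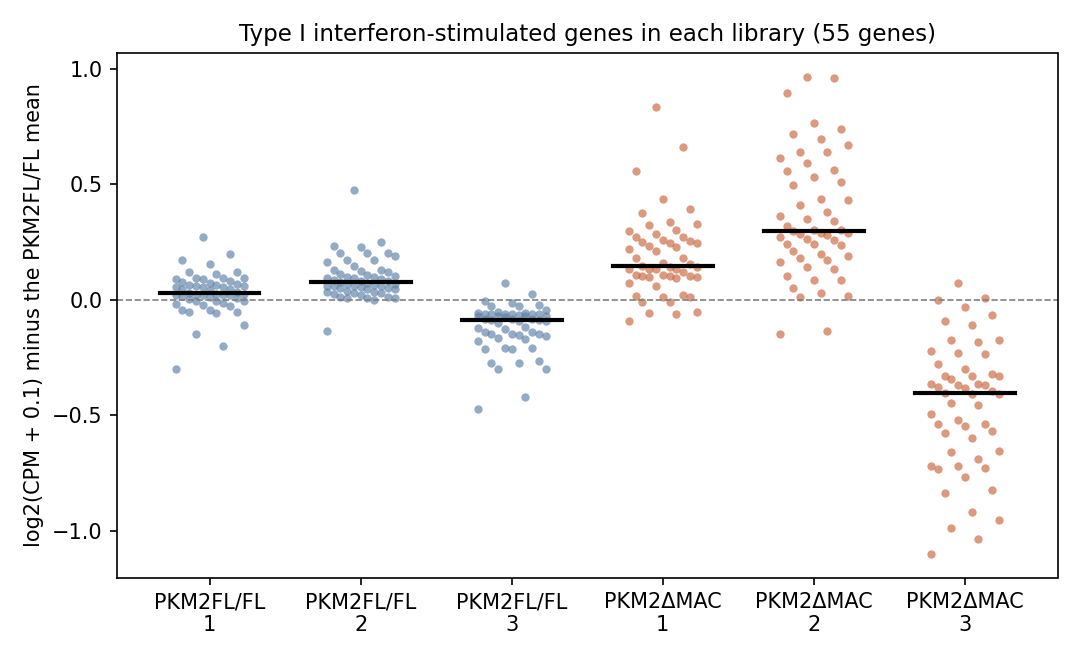
Level of the 55 interferon-stimulated genes in each library, as log2(CPM + 0.1) minus the mean of the 3 PKM2FL/FL libraries of that gene (y axis). Each point is a gene and each bar a median. The PKM2FL/FL medians lie at 0.03, 0.08 and -0.09, and the PKM2ΔMAC medians at 0.15, 0.30 and -0.40.

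Relative to the PKM2FL/FL mean, the median member stood, in log2 units, at 0.15, 0.30 and -0.40 in PKM2ΔMAC replicates 1, 2 and 3 and at 0.03, 0.08 and -0.09 in the controls. Between PKM2ΔMAC replicates 2 and 3 the median difference was 0.69, or 1.62-fold, and over all genes tested it was 0.01. The scaling of the libraries keeps that second median near 0, so it does not show how far other genes differed in either direction. The members took 0.602% of all counts in PKM2ΔMAC replicate 2, 0.513% in replicate 1 and 0.376% in replicate 3, against 0.442% to 0.501% in the controls. In bulk RNA, fewer cells that express a gene and less of its RNA per cell cannot be told apart. The genotype comparison therefore rested on which mice entered it. Without PKM2ΔMAC replicate 2 the median log2 fold change turned to -0.10, with 10 members above 0 and 45 below, and 1 member had an unadjusted p under 0.05 (background 13.3%). Without PKM2ΔMAC replicate 3 it was 0.23, with 53 members above 0 and 2 below, and 34 members had an unadjusted p under 0.05 (background 11%). Neither fit called a member, the smallest adjusted p being 0.322 and 0.106.

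**Figure D2:**
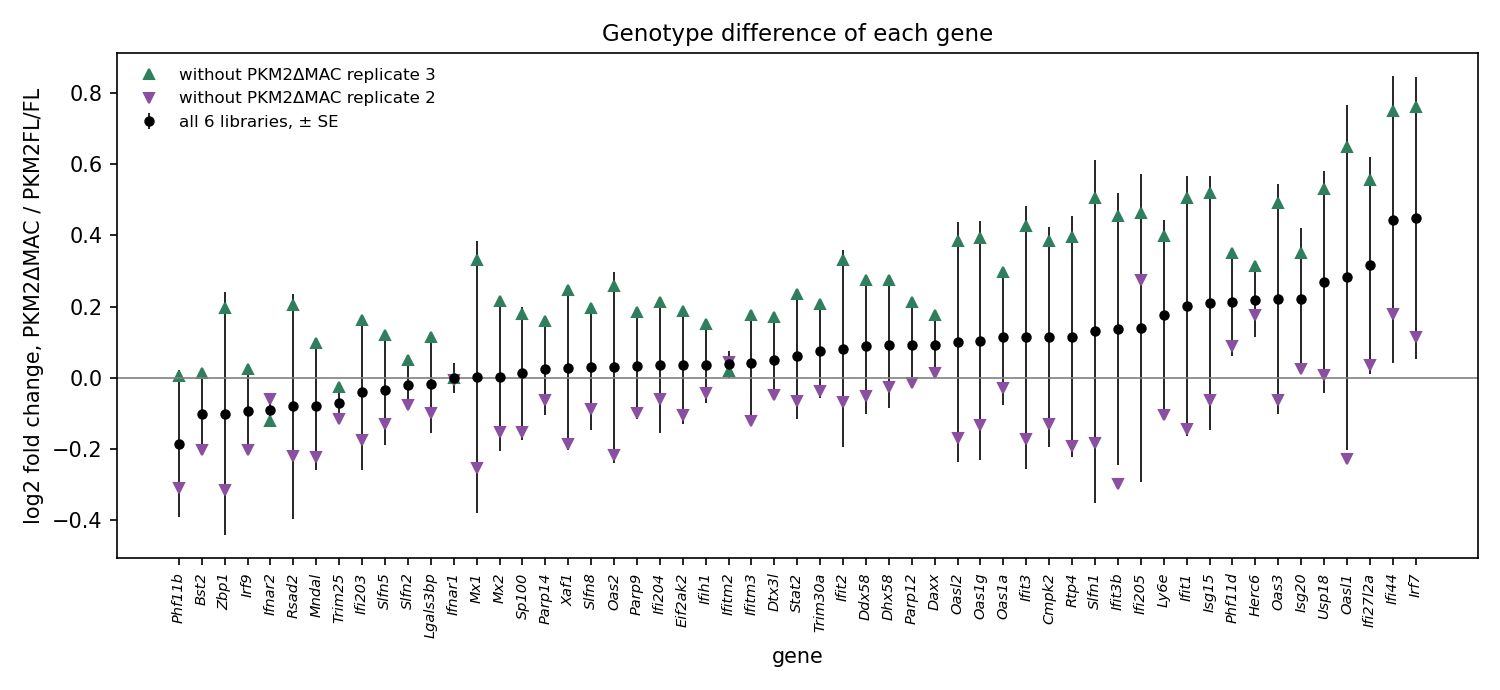
Log2 fold change of PKM2ΔMAC over PKM2FL/FL (y axis) for each of the 55 genes (x axis, ordered by the value with all 6 libraries). Black points with bars give the edgeR estimate ± SE, upward triangles the estimate without PKM2ΔMAC replicate 3 and downward triangles that without replicate 2. The triangles lie on opposite sides of 0 for 43 of the 55 genes, and nearly coincide for Ifnar1 and Ifitm2.

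The receptor genes did not take part in this spread. Ifnar1, which encodes the chain that binds TYK2, was at 178, 194 and 183 CPM in PKM2FL/FL and at 184, 187 and 185 CPM in PKM2ΔMAC. The 3 knockout libraries lay within the range of the controls, for a log2 fold change near 0 (2.7e-05, SE 0.04, adjusted p = 1.00). Ifnar2, the chain that binds JAK1, was at 105, 111 and 106 CPM against 101, 96.6 and 105 CPM. Every PKM2ΔMAC library was below every control (log2 fold change -0.09, SE 0.04, adjusted p = 0.549), with a two-sided exact permutation p of 0.1, the smallest that 3 against 3 allow. Ifnar1 and Ifnar2 lie within 134.7 kb of each other on chromosome 16 (GRCm38), and Ifnar2 shares 7.89% of its 50-base stretches with the overlapping gene model Gm21970. Of the other type I interferon genes listed, only Ifnz had a row, with at most 6 counts in a library.

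Transcription factors of the pathway differed in how far they varied. Stat2, the ISGF3 subunit that docks on the receptor, was at 99.5, 96.6 and 89.6 CPM in PKM2FL/FL and at 108, 116 and 73.8 CPM in PKM2ΔMAC. Its 2 highest and its lowest value were all from PKM2ΔMAC mice (log2 fold change 0.06, SE 0.18, adjusted p = 0.947). Irf9, the DNA-binding subunit, was at 68.9, 71.0 and 64.8 CPM against 65.6, 73.3 and 52.8 CPM. The other 5 libraries were close together, and only replicate 3 of PKM2ΔMAC stood clearly below them (log2 fold change -0.09, SE 0.12, adjusted p = 0.849). Irf7, which amplifies interferon production and is itself interferon-induced, was at 42.4, 44.7 and 31.9 CPM against 57.8, 76.8 and 27.8 CPM. It had the highest fold change of the list (0.45, SE 0.40, adjusted p = 0.788), with PKM2ΔMAC replicates 1 and 2 above all controls and replicate 3 below them. That value was 0.11 without PKM2ΔMAC replicate 2, below those of Ifi205, Ifi44 and Herc6, and 0.76 without replicate 3.

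The IFIT family, tetratricopeptide proteins that bind viral RNA ends and block translation, lies within 99.3 kb on chromosome 19 and varied most as a group. The median difference between PKM2ΔMAC replicates 2 and 3 was 1.418 on the log2 scale over its 4 members. Ifit1 was at 24.5, 26.4 and 23.9 CPM in PKM2FL/FL and at 29.8, 41.0 and 15.1 CPM in PKM2ΔMAC. Ifit2 was at 45.2, 40.6 and 36.4 CPM against 50.8, 51.6 and 26.7 CPM. In both genes the controls sat between PKM2ΔMAC replicate 3 below and replicates 1 and 2 above. Ifit3 was at 27.7, 28.3 and 23.5 CPM against 32.1, 39.0 and 14.7 CPM. Ifit3b was at 6.37, 5.02 and 5.29 CPM against 5.94, 9.31 and 3.08 CPM. The log2 fold changes of the 4 genes were 0.08 to 0.20 with adjusted p of 0.910 to 0.956, while replicate 2 exceeded replicate 3 of PKM2ΔMAC 1.93-fold for Ifit2 and 2.96-fold for Ifit3b. Ifit3 shared 51.2% of its 50-base stretches with Ifit3b, so that reads could be divided between these 2 rows.

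**Figure D3:**
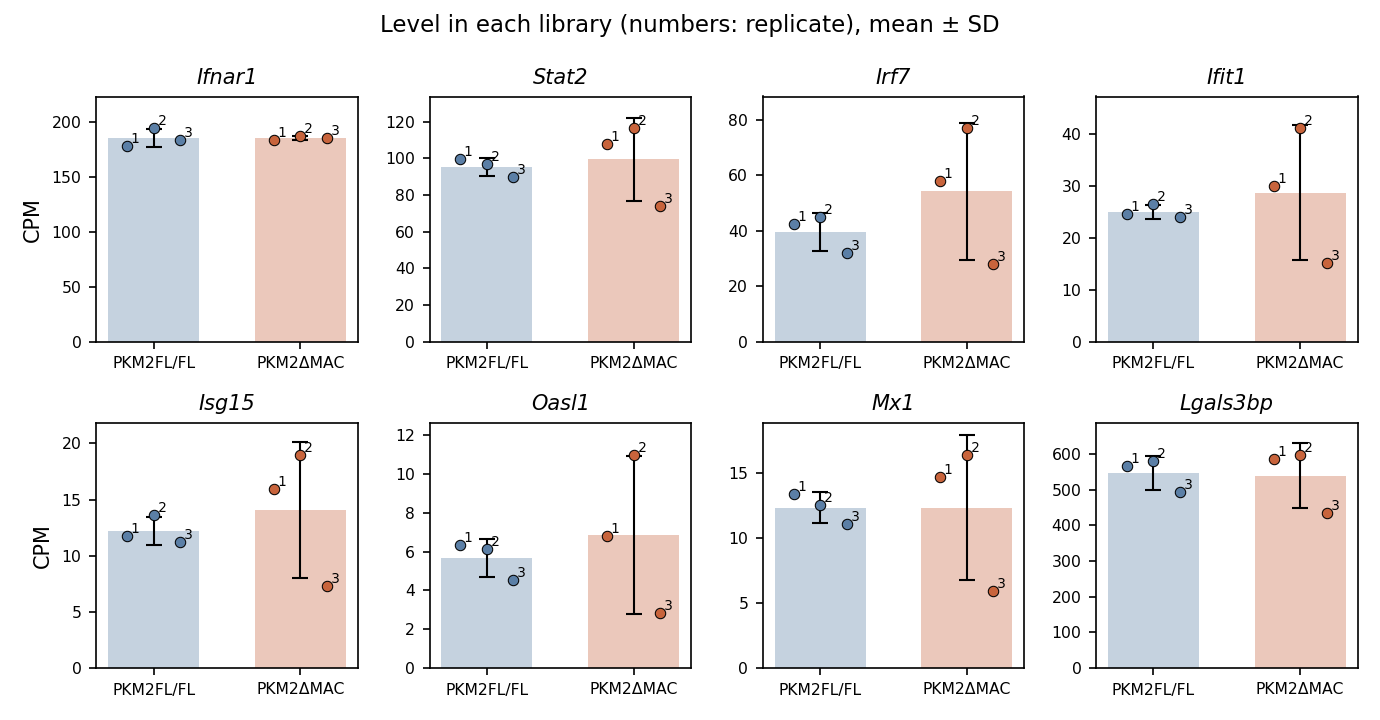
CPM in each library (y axis, from 0) of 8 genes, with bars for the mean, error bars for the SD (n = 3 mice) and points numbered by replicate. Ifnar1 is level in all 6 libraries, whereas Irf7, Ifit1, Isg15, Oasl1 and Mx1 have PKM2ΔMAC replicate 2 highest and replicate 3 lowest.

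ISG15 is a ubiquitin-like protein attached to other proteins after interferon. Isg15 was at 11.8, 13.6 and 11.2 CPM in PKM2FL/FL and at 16.0, 19.0 and 7.29 CPM in PKM2ΔMAC (log2 fold change 0.21, SE 0.36, adjusted p = 0.898). PKM2ΔMAC replicates 1 and 2 were above all controls and replicate 3 was below them. Herc6, the main ISG15 ligase of mice, was at 19.1, 17.7 and 16.1 CPM against 22.1, 21.7 and 17.7 CPM. It departed from the common pattern, with replicate 3 of PKM2ΔMAC inside the range of the controls, and had the smallest p of the list (log2 fold change 0.22, SE 0.10, adjusted p = 0.537). Trim25, a ubiquitin ligase that also acts on RIG-I, was at 219, 224 and 206 CPM against 207, 218 and 192 CPM. Its libraries differed little (log2 fold change -0.07, SE 0.06, adjusted p = 0.739). Usp18, which removes ISG15 and restrains IFNAR2, differed 2.22-fold between PKM2ΔMAC replicates 2 and 3.

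Oligoadenylate synthetases make the 2′-5′ oligoadenylates that activate RNase L. The 4 Oas members lie within 177.2 kb and the 2 Oasl members within 41.0 kb on chromosome 5. Oasl1, which lacks synthetase activity, was at 6.33, 6.14 and 4.53 CPM in PKM2FL/FL and at 6.78, 10.999 and 2.84 CPM in PKM2ΔMAC. Replicate 2 exceeded replicate 3 of PKM2ΔMAC 3.77-fold, the widest gap of the list (log2 fold change 0.28, SE 0.49, adjusted p = 0.901). Oasl2, the most abundant of the family by CPM, was at 107, 109 and 86.4 CPM against 118, 145 and 60.8 CPM. PKM2ΔMAC replicates 1 and 2 were again above all controls and replicate 3 below them (log2 fold change 0.10, SE 0.34, adjusted p = 0.955). For all 6 members PKM2ΔMAC replicate 2 was the highest and replicate 3 the lowest library, with a median difference of 1.22. Oas1a shared 57.6% of its 50-base stretches with Oas1g.

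Sensors of foreign nucleic acid had a smaller median difference between PKM2ΔMAC replicates 2 and 3 than the IFIT and OAS families. The groups were not tested against each other. Ddx58, which encodes RIG-I, was at 85.3, 92.4 and 88.4 CPM in PKM2FL/FL and at 103, 112 and 68.2 CPM in PKM2ΔMAC. The controls lay close together and all PKM2ΔMAC libraries lay outside them, on both sides (log2 fold change 0.09, SE 0.19, adjusted p = 0.928). All 5 sensors, with Ifih1 (MDA5), Dhx58 (LGP2), the Z-nucleic acid sensor Zbp1 and the kinase gene Eif2ak2 (PKR), had PKM2ΔMAC replicate 2 highest and replicate 3 lowest. Their median difference was 0.67, from 1.33-fold for Ifih1 to 2.38-fold for Zbp1. Among the p200 genes, relatives of the DNA sensor AIM2, Ifi204 was at 123, 129 and 108 CPM against 139, 138 and 90.4 CPM. PKM2ΔMAC replicates 1 and 2 were level and above the controls (log2 fold change 0.03, SE 0.19, adjusted p = 0.974). The 4 p200 members lie within 284.5 kb on chromosome 1, share 12.2% to 20.02% of their 50-base stretches with other genes, and all had replicate 3 of PKM2ΔMAC lowest. Ifi205, singled out after its values were seen, was at 0.674, 0.904 and 0.807 CPM in the controls and peaked in PKM2ΔMAC replicate 1 at 1.49 CPM, where replicates 2 and 3 were at 0.710 and 0.423 CPM.

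The largest group, of 15 genes, held MX proteins and other antiviral effectors. Mx1, a dynamin-like GTPase, was at 13.4, 12.5 and 11.1 CPM in PKM2FL/FL and at 14.6, 16.4 and 5.94 CPM in PKM2ΔMAC. Its group means were both 12.3 CPM while its SD was 1.16 CPM in controls and 5.595 CPM in PKM2ΔMAC (adjusted p = 0.999). Ifi44 was at 11.9, 11.3 and 7.05 CPM against 15.6, 18.4 and 7.17 CPM. Here control replicate 3 was as low as PKM2ΔMAC replicate 3 (log2 fold change 0.44, SE 0.40, adjusted p = 0.794). Isg20, a 3′-5′ exonuclease, was at 3.97, 5.77 and 5.18 CPM against 5.41, 7.28 and 4.69 CPM. The lowest library was a control (log2 fold change 0.22, SE 0.20, adjusted p = 0.779). Lgals3bp, a secreted glycoprotein, was at 567, 579.7 and 492 CPM against 586, 598 and 433 CPM. PKM2ΔMAC replicates 1 and 2 were close to the controls and only replicate 3 was clearly lower (log2 fold change -0.02, SE 0.14, adjusted p = 0.980). Per transcript length, the most abundant members were Ifitm3, with a mean of 1704 TPM, and Lgals3bp, with 685 TPM, against a median of 50.9 TPM over the list. Ifitm2, a membrane protein gene of the same cluster as Ifitm3, differed 0.970-fold between PKM2ΔMAC replicates 2 and 3 and Ifitm3 1.51-fold. Ifitm2 shared 48.5% of its 50-base stretches with other gene models. Rsad2 (viperin), whose product makes a chain-terminating nucleotide, and Cmpk2, a nucleotide kinase gene beside it, differed 2.12-fold and 2.25-fold between these replicates, and Bst2 (tetherin), which holds virions at the cell surface, 1.37-fold.

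The remaining groups held ADP-ribosyltransferases, Schlafen genes and nuclear body genes, with median differences between PKM2ΔMAC replicates 2 and 3 of 0.48, 0.59 and 0.62. Parp14, a mono-ADP-ribosyltransferase, was at 305, 310.5 and 286 CPM in PKM2FL/FL and at 331, 341 and 244 CPM in PKM2ΔMAC (log2 fold change 0.02, SE 0.13, adjusted p = 0.975). PKM2ΔMAC replicates 1 and 2 were above all controls and replicate 3 below them. Parp9 and Dtx3l share 458 exon bases on opposite strands, and the strand setting of the counts is not given in the sources used here. Slfn5 was at 265, 269 and 243 CPM against 278, 286 and 195 CPM (log2 fold change -0.04, SE 0.15, adjusted p = 0.967). Slfn1 was at 2.98, 4.35 and 2.28 CPM against 4.22, 4.88 and 1.39 CPM. It differed 3.34-fold between PKM2ΔMAC replicates 2 and 3, but its controls also differed 1.87-fold (log2 fold change 0.13, SE 0.48, adjusted p = 0.961). Sp100, a component of PML nuclear bodies, was at 116, 119 and 102 CPM against 117, 138 and 85.1 CPM (log2 fold change 0.01, SE 0.19, adjusted p = 0.991). Daxx, a histone chaperone of the same bodies, was at 52.0, 52.6 and 49.997 CPM against 55.6, 60.9 and 48.4 CPM (log2 fold change 0.09, SE 0.08, adjusted p = 0.767). Phf11d was at 14.5, 15.4 and 12.01 CPM against 16.8, 18.8 and 12.9 CPM (log2 fold change 0.21, SE 0.15, adjusted p = 0.715). In Sp100 and Daxx replicate 3 of PKM2ΔMAC was the lowest library, and in Phf11d it lay within the controls.

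**Figure D4:**
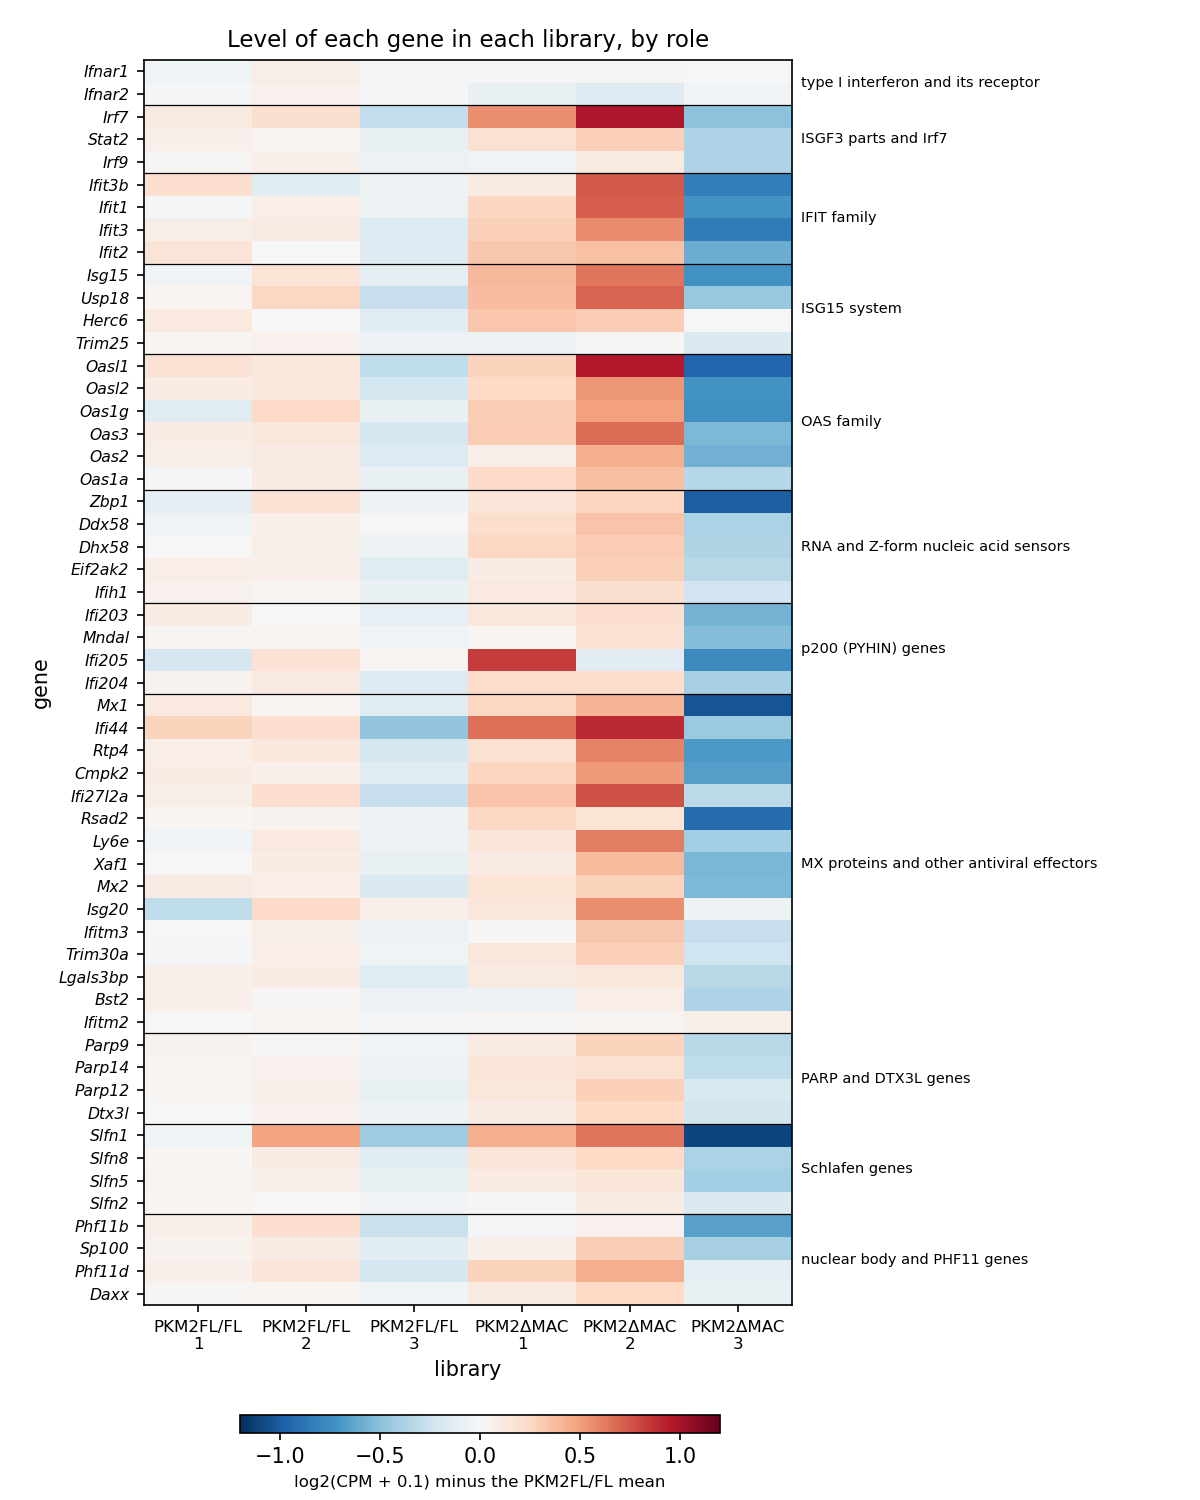
Level of each interferon-stimulated gene (rows, by role) in each library (columns), as log2(CPM + 0.1) minus its PKM2FL/FL mean. Red is above and blue below that mean. PKM2ΔMAC replicate 2 is red and replicate 3 blue in nearly all rows but those of Ifnar1, Ifnar2 and Ifitm2.

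Genes that act upstream of the interferon-stimulated genes had smaller median differences. Over 12 genes of interferon induction (TLR4 and TLR3, their adaptors, TBK1 and IRF kinases and factors) the median difference between PKM2ΔMAC replicates 2 and 3 was 0.10, and over 13 genes of receptor signalling and its brakes it was -0.0028. PKM2ΔMAC replicate 3 was the lowest library for 6 of the 12 and for 3 of the 13 (background 18.8%). Replicate 2 was the highest for 3 of the 12 and for 3 of the 13 (background 24.9%). Single genes of these lists ran from -0.46 for Socs3 to 0.48 for Ube2l6 in this difference. The most abundant genes of these lists were Irf5, with control and PKM2ΔMAC means of 211 and 215 CPM, and Jak1, with 450.5 and 435 CPM. A further 45 interferon-stimulated genes that are no members had a median difference of 0.42, and 29 of them had PKM2ΔMAC replicate 3 lowest. The most abundant, Rnf213, was at 598 ± 50.2 CPM in controls against 635 ± 153 CPM (SD, 3 mice each). Of the 70 pathway genes tested, 0 had an adjusted p under 0.05, beside 0.412% of all genes. At an unadjusted p under 0.05 the count was 3, beside 9.83% of all genes. Another 21 of the 91 listed had no row or did not pass the filter. DESeq2 called 1 of the pathway genes, Epsti1, beside 280 of 20217 genes (1.38%). By edgeR the log2 fold change of Epsti1 was -0.83 with an adjusted p of 0.332.

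Genes that IFN-γ induces were compared as a second interferon response. The list held guanylate-binding protein and immunity-related GTPase genes together with Ciita, Cxcl9, Irf1 and Irf8. The 19 genes tested stood at 0.01, 0.19 and -0.34 in PKM2ΔMAC replicates 1, 2 and 3 relative to the control mean, with a median difference of 0.42 between replicates 2 and 3. Replicate 3 of PKM2ΔMAC was lowest for 10 of 19 of them, against 48 of 55 members, and replicate 1 was above all controls for 4 of 19, against 39 of 55. These shares were not tested against each other. No gene of this list had an adjusted p under 0.05, beside 0.412% of all genes. The most abundant, Irf8, was at 238 ± 4.11 CPM in controls against 213 ± 8.77 CPM (SD, 3 mice each). Its log2 fold change was -0.17, with an adjusted p of 0.232.

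**Figure D5:**
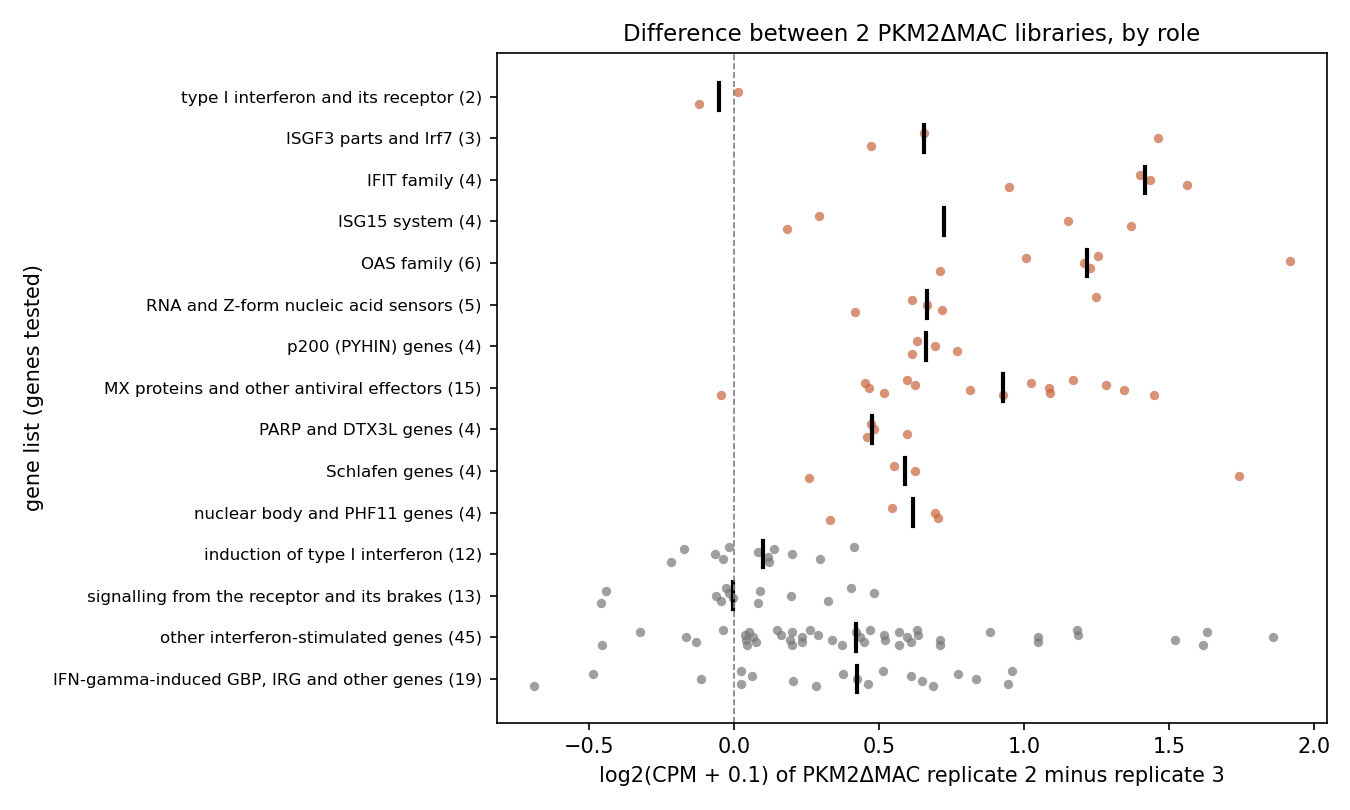
Difference between PKM2ΔMAC replicates 2 and 3 in log2(CPM + 0.1) (x axis) for each gene of each list (y axis, with the number of genes tested). Orange points are the interferon-stimulated genes by role, grey points other genes of the pathway and the IFN-γ-induced genes, and black bars medians. The medians run from 1.418 for the IFIT family to -0.05 for the receptor genes.

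Among the members with a promoter window, the median difference between PKM2ΔMAC replicates 2 and 3 was 0.70 for the 22 with ISRE-like letters and 0.54 for the 21 without. Over all tested genes with a window, the same medians were 0.05 with and 0.00380 without these letters. Irf7 and Oasl1, both among the widest gaps, had none of these letters in the window.

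Other cell types were looked for in the same libraries. Neutrophil markers summed to 20.3 to 48.8 CPM in PKM2FL/FL and to 122, 90.1 and 170 CPM in PKM2ΔMAC replicates 1, 2 and 3, with all 8 markers measured. Conventional dendritic cell markers were lowest in PKM2ΔMAC replicate 2, at 119 CPM, and highest in replicate 3, at 365 CPM, against 158 to 285 CPM in the controls, but Itgax, at 115 to 361 CPM, made up nearly all of this sum. The median marker of the 7 went the other way, 0.53 higher in replicate 2 than in replicate 3 on the log2 scale, which is the direction of the interferon-stimulated genes. The plasmacytoid dendritic cell markers that are no members summed to 166 to 182 CPM in the 6 libraries, of which Tcf4 alone made up 164 to 179.6 CPM. Their median marker, of 5 measured, was 0.80 higher in PKM2ΔMAC replicate 2 than in replicate 3 on the log2 scale, and 3 of the 5 were lowest in replicate 3. Siglech, which defines these cells, was at 0.562, 0.904 and 0.748 CPM in the controls and at 0.829, 0.510 and 0.161 CPM in PKM2ΔMAC replicates 1, 2 and 3. Spib went the other way, at 0.146 CPM in replicate 2 and 0.484 CPM in replicate 3, and PKM2ΔMAC replicate 2 was above all controls for 0 of the 5 markers. Of the other lists, B cell markers ran from 39.4 to 55.2 CPM and T and NK cell markers from 9.72 to 20.8 CPM. Erythroid markers ran from 1.22 to 2.66 CPM. Mast cell and basophil markers ran from 3.16 to 8.05 CPM, with Fcer1a at 3 counts or fewer. The B cell sum was highest in PKM2ΔMAC replicate 2. The mast cell and basophil sum was highest in that library too and lowest in PKM2ΔMAC replicate 3. The T and NK cell sum went the other way, lowest in replicate 2 and highest in replicate 3. Stromal markers, led by the collagen genes Col1a1 and Col1a2, summed to 5001 to 6314 CPM in all 6 libraries. Their sum was 5004 CPM in PKM2ΔMAC replicate 2 and 6287 CPM in replicate 3. The share of counts from mitochondrial genes was 1.55% in PKM2ΔMAC replicate 3 and 1.38% to 1.45% in the others, and the 20 most abundant genes took 10.8% in replicate 2 and 12.8% to 13.8% in the others. The part of these differences in the spread of the interferon-stimulated genes was not tested.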

How the data were processed

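The authors deposited a table of gene counts and a table of TPM for 6 libraries, made with a SMARTer total RNA kit. The submitters' processing notes name FastQC 0.12.1, Trim Galore 0.6.10, HISAT2 2.2.1, SAMtools 1.19.2, Subread 2.0.6 and mm10. The strand setting and how the authors computed TPM are not given in the sources used here. Counts were filtered with filterByExpr, scaled by TMM and tested with edgeR 4.0.16 (robust quasi-likelihood, genotype as the only term, R 4.3.3), with p-values adjusted over 16516 genes. CPM carry the TMM factors, and differences between libraries are on log2(CPM + 0.1). SE is the log2 fold change divided by the root of F. DESeq2 1.42.0, limma 3.58.1 on log2 TPM, other scalings, other filters, a replicate block and leaving out each library were tried as alternatives. The scripts were tested on simulated data. Apart from Ifi205, members given with the CPM of each library were chosen by a rule. They had the highest mean CPM of their role, the lowest p or the largest SD among PKM2ΔMAC libraries. The receptor and ISGF3 genes were added. Values for other members, such as Usp18, Zbp1 and Bst2, were given outside this rule. Members and lists were chosen with earlier results of these data known. Gene positions are from GENCODE M21 (GRCm38), and 50-base stretches were compared among its transcripts. Library titles name numbered mice of each genotype, such as "PKM2ΔMAC mice 1", read here as 1 mouse per library. On that reading p-values measure the spread between mice, together with that of culture and library preparation. 1 gene of the pathway is not reported here.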

Additional observations from a re-analysis of the deposited data

How the results depend on the processing

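None of the members with a value was called under any of the 17 alternatives, which gave 55 a value in all but 2 TPM fits, where Ifi205 was filtered out and 54 remained. The number of all genes called, 68 with the settings of the report, was 280 with DESeq2, 120 with no filter on low counts, 41 and 32 on log2(TPM + 1) and log2(TPM + 0.1) with a mean of at least 1 TPM, 36 on log2(TPM + 1) with no filter, and 22 to 299 when 1 library was left out. It was 26, 27 and 22 without PKM2FL/FL replicate 1, 2 or 3 and 299 without PKM2ΔMAC replicate 2. Of the other pathway genes 1, the interferon-stimulated gene Epsti1, was called with DESeq2, and 0 to 1 when a library was left out, the 1 being Epsti1 without PKM2ΔMAC replicate 1. On log2(TPM + 0.1) the median member stood at 0.42 in PKM2ΔMAC replicate 2. Same-numbered libraries of the genotypes had deviations correlated at 0.08, 0.14 and 0.02, and differently numbered ones at -0.12 to 0.07. The sources used here do not say whether the numbers pair the samples, and correlations this small cannot settle it. With the replicate block 82 genes and 0 members were called, and the median member was at 0.03.

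Uncalled log2 fold changes near 0 changed sign. Ifnar1 was at -0.0014 with DESeq2, -0.00062 with RLE normalization, -0.0017 with no filter and -0.0053 after thinning to the smallest total. Mx1 was at -0.0023 with DESeq2, -0.00054 with no filter, -0.0088 after thinning, -0.037 on log2(TPM + 1) with and without the filter, -0.052 on log2(TPM + 0.1) and -0.10 with the replicate block. In the 3 TPM fits Lgals3bp was at 0.042 and Slfn5 at 0.018 with a pseudocount of 1 and 0.017 with 0.1, and Sp100 was at -0.011 with the replicate block. The cause was not tested.

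When each library was left out in turn, the median member ranged from -0.10 to 0.23, Ifnar1 from -0.026 to 0.035, Stat2 from -0.065 to 0.23, Irf9 from -0.20 to 0.025, Ifit1 from -0.15 to 0.51, Ifit2 from -0.068 to 0.33, Ifit3 from -0.17 to 0.43, Ifit3b from -0.30 to 0.45, Isg15 from -0.063 to 0.52, Oasl1 from -0.23 to 0.65, Oasl2 from -0.17 to 0.38 and Ddx58 from -0.053 to 0.27. Ifi204 ranged from -0.066 to 0.21, Mx1 from -0.26 to 0.33, Lgals3bp from -0.10 to 0.12, Parp14 from -0.062 to 0.16, Slfn1 from -0.18 to 0.51, Slfn5 from -0.13 to 0.12 and Sp100 from -0.15 to 0.18. Irf7 ranged from 0.11 to 0.76, Ifi44 from 0.18 to 0.75, Isg20 from 0.025 to 0.35, Phf11d from 0.090 to 0.35, Daxx from 0.014 to 0.18, Herc6 from 0.16 to 0.31, Trim25 from -0.12 to -0.025 and Ifnar2 from -0.12 to -0.060. The SE of the members, from 0.04 to 0.49, sets what each comparison could resolve.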
